A study of Homo sapiens with 4 samples.

Results

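The engineered prostate cancer tissue (EPCaT) made with 2% PEGDA was compared with a flat coculture of the same cells by RNA sequencing, with 1 library a side. The genes described are all those with at least 1 CPM (read count per 1000000 of the scaled library size) in either library, which were 14421 of 17791 symbols. In an EPCaT, PC-3 cells and BJ-5ta fibroblasts are encapsulated in PF, fibrinogen joined to poly(ethylene glycol), with 5 PC-3 cells for each BJ-5ta cell. The PF+2%PEGDA EPCaT also held excess PEGDA, poly(ethylene glycol) diacrylate, a crosslinker, and was taken on day 15 after culture in PC-3 medium. The 2D coculture held both lines, but its labels give no day, cell ratio or coculture medium, so gel, cell density, culture age, cell ratio and medium cannot be told apart in this comparison. RNA came from more than 2 EPCaTs, per the series' text, so tissues were taken to be combined in the EPCaT library. PC-3 is a single cancer line from a bone metastasis, carries a deletion in CTNNA1, and BJ-5ta is a single foreskin fibroblast line immortalised with telomerase. Libraries of PF and PF+3%PEGDA EPCaTs from the same day, 1 each, entered the scaling and otherwise served to show where the 2% gel differed from them.

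Cells packed in a gel receive oxygen and nutrients by diffusion. When oxygen is short, prolyl hydroxylases stop marking the HIF alpha subunits for destruction, and HIF then binds short core sequences near genes of glucose use, acid handling and blood supply. Cells also adjust the chaperones of the endoplasmic reticulum (ER) and the uptake of amino acids to the load of secreted protein and the nutrients at hand, through the unfolded protein response and the factor ATF4. Fibroblasts in prostate tumours supply most of the collagen and much of the matrix.

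Many genes of low-oxygen response, glycolysis, cell division and mucins were higher in the PF+2%PEGDA EPCaT, while many ER chaperone, amino acid, matrix glycoprotein, contractile and interferon-stimulated genes were lower. A gene was called higher or lower where the libraries differed at least 2-fold and the exact 95% interval of the ratio, which covers counting error only, excluded equality. By that rule 1782 genes (12.4% of those measured) were higher, 1403 (9.73%) were lower and 11236 were neither. With 1 library a group there is no replicate check of any difference and no p-value is given. The median log2 ratio over all genes was -0.0041, and the 5th and 95th percentiles were -1.51 and 1.80. At least 4-fold apart were 620 higher and 408 lower genes, and at least 10-fold apart 183 and 86. The rule for inclusion let in 644 genes through the EPCaT library alone and 508 through 2D alone. Such genes could only be called in the direction of the library that let them in. Among the 13269 genes at 1 CPM or more in both libraries, 1292 were higher and 1037 lower.

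Totals were 15333450 counts in the PF+2%PEGDA EPCaT and 15641804 in 2D, so 1 count was worth 0.0644 and 0.0681 CPM. The 20 most abundant genes held 6.33% and 8.15% of counts. Ribosomal RNA genes held 0.685% and 1.597%, and 3 of them, RNA28SN3, RNA28SN5 and RNA28SN2, were among the 8 largest losses in CPM (1170, 1398 and 1621 CPM against 4578, 4190 and 4185 CPM). These copies are near identical and the libraries select poly-A RNA, so their values are uncertain.

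**Figure D1:**
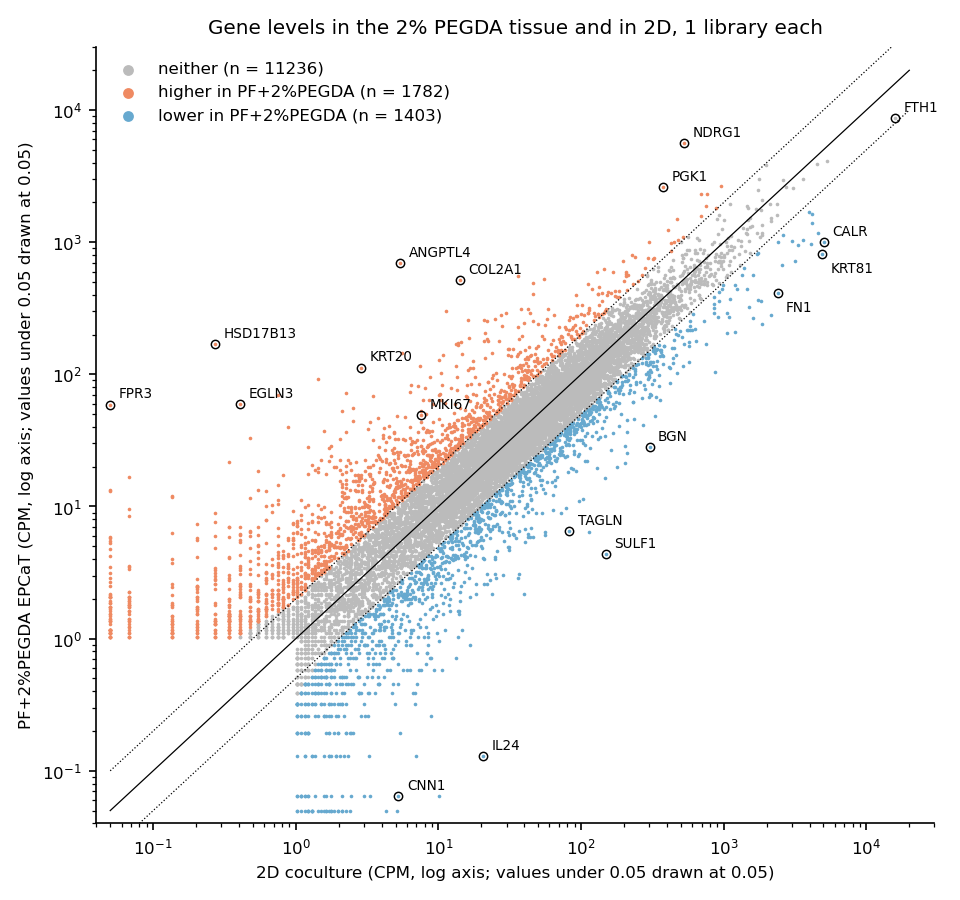
Each point is 1 gene, with its CPM in the 2D coculture on the x axis and in the PF+2%PEGDA EPCaT on the y axis, both log axes, 1 library each. The solid line marks equality, the dotted lines 2-fold, and values under 0.05 CPM are drawn at 0.05. HSD17B13, FPR3 and ANGPTL4 lie far above the line and IL24, CNN1 and SULF1 far below it.

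Most of the 15 genes farthest above 2D were under 1 CPM there. Those genes entered through the EPCaT library alone, so the inclusion rule fixed their direction. HSD17B13, a lipid droplet enzyme (GRCh38 chromosome 4, 87303789 to 87322906), measured 168 CPM in the EPCaT and 0.272 CPM in 2D, 4 counts, which is 618-fold higher (interval 241 to 2270). FPR3, a receptor of the formyl peptide family (chromosome 19, 51795163 to 51826189), had 916 counts, or 59.01 CPM, in the EPCaT and 0 in 2D, at least 289-fold higher with the 2D library set to 3 counts. ANGPTL4, a secreted inhibitor of lipoprotein lipase, measured 692 and 5.38 CPM, 129-fold higher. Like HSD17B13 and FPR3, ANGPTL4 was within 2-fold of this level in both other gels, at 403 CPM in PF and 705 CPM in PF+3%PEGDA.

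The other 12 of the 15 most extreme higher genes included markers of liver, fat, gut, hair and cartilage. The prolyl hydroxylase gene EGLN3 was 146-fold higher and the fatty acid carrier gene FABP4 64.9-fold. ABCB11, the bile salt exporter of hepatocytes, had 260 counts against 1. FAM177B (206 counts) and UTS2 (203 counts), which encodes the peptide urotensin 2, had 0 in 2D and were at least 64.9-fold and 63.99-fold higher. UTS2 was also 12.1-fold higher than in the PF gel (13.1 against 1.08 CPM), and 48.5% of its exonic bases lie opposite another gene's exons, which unstranded libraries cannot separate. KRT20, a keratin of gut and bladder linings (113 and 2.86 CPM), KRT37, a hair keratin (21.6 and 0.341 CPM, 39.0% of its exonic bases opposite another gene), and COL2A1, the cartilage collagen (516 and 14.1 CPM), were 39.4-, 63.6- and 36.6-fold higher. HSD11B2, which inactivates cortisol, was 45.1-fold higher than 2D and 4.38-fold higher than the PF gel. MUC16, the mucin that carries the CA125 antigen, C2orf72 and PPFIA4 were 93.7-, 69.3- and 140-fold higher than 2D, though MUC16 and PPFIA4 were 2.25- and 3.76-fold lower than in the PF gel.

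Among the 15 most extreme lower genes were matrix, contractile and receptor genes. Those under 1 CPM in the EPCaT, such as IL24, IGF2BP1, COL14A1 and CNN1, entered through 2D alone, which fixed their direction. IL24, a cytokine of the IL-10 family (chromosome 1, 206897443 to 206904139), had 2 counts in the EPCaT and 302 in 2D (0.129 and 20.6 CPM), 160-fold lower with an interval of 43.8 to 1324. IGF2BP1, an oncofetal RNA-binding protein, had 1 and 149 counts, 158-fold lower with an interval of 27.8 to 6264. Both were also lower than in the other gels, where IL24 had 13 and 14 counts and IGF2BP1 9 and 7. SULF1, which removes sulfate from heparan sulfate, measured 4.38 and 150 CPM, 34.1-fold lower. COL14A1, a collagen that binds fibril surfaces, had 0 and 75 counts and was at least 26.4-fold lower. The contractile genes CNN1 (calponin) and TAGLN (transgelin) were 81.4- and 12.7-fold lower, and the proteoglycan gene BGN (biglycan) 10.8-fold, at 28.02 and 302 CPM. The adrenergic receptor gene ADRA1D (6.44 and 114 CPM) was 17.7-fold lower and ESM1, which encodes the proteoglycan endocan, 18.2-fold. GPR17, C3orf80, KRTAP2-3, SLAMF7, ACKR4 and SPX completed the 15, between 18.3- and 53.9-fold lower, all at 0.902 CPM or less in the EPCaT.

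The 8 largest gains in CPM held 6 glycolytic genes, and the 8 largest losses 3 ribosomal RNA genes and 2 ER chaperone genes. NDRG1, a stress-response gene induced by low oxygen, measured 5642 CPM against 527 and gained most. PGK1, GAPDH, ENO1, LDHA, ALDOA and PKM, all glycolytic, and KRT19, a simple epithelial keratin, were the next 7. Of these, GAPDH (3810 and 1991 CPM, 1.91-fold) and PKM (3013 and 1758 CPM, 1.71-fold) did not reach 2-fold. The largest loss was that of FTH1, the ferritin heavy chain, at 8663 and 15855 CPM (1.83-fold, not called), and 62.4% of its exonic bases lie opposite another gene. KRT81, a hair keratin, measured 816 and 4898 CPM, 6.001-fold lower, with 46.8% of its 50-base words shared with other genes. The ER chaperone genes CALR and HSPA5 and the chromatin gene HMGA1 (1034 and 3571 CPM, 3.45-fold lower) were the others besides ribosomal RNA.

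Of 10 genes for HIF subunits and oxygen sensors, 4 were higher and 0 lower. Of these, EGLN3 entered through the EPCaT library alone. EGLN1, the main oxygen sensor, measured 275 and 91.8 CPM, and EGLN3 59.8 and 0.409 CPM, whereas EGLN2 measured 44.4 and 53.7 CPM. The other higher members were ARNT2, a HIF partner subunit (16.7 and 2.79 CPM), and CITED2, a HIF-induced inhibitor (202 and 94.01 CPM). Transcripts of the alpha subunits were not among them: HIF1A measured 232 and 395 CPM, and EPAS1, which encodes HIF-2 alpha, 90.4 and 120 CPM. ARNT, HIF1AN and VHL were within 2-fold.

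Of 29 measured HIF target genes outside glycolysis, 19 (65.5%) were higher and 0 lower, against 12.4% and 9.73% of all genes. Their median log2 ratio was 1.39 and their summed level 12022 CPM against 3718. Besides ANGPTL4 and NDRG1, the most extreme were CA9, a surface carbonic anhydrase (8.44 and 0.0681 CPM, 131 counts against 1), and HILPDA, which blocks lipid breakdown (257 and 16.1 CPM). ADM, the vasodilator adrenomedullin (168 and 13.6 CPM, 12.3-fold), and the mitochondrial gene FAM162A (292 and 44.1 CPM, 6.63-fold) followed. The ratio of CA9 rests on 1 count in 2D (interval 21.9 to 4930), and 38.5% of its exonic bases lie opposite another gene. CA9 entered through the EPCaT library alone. VEGFA, the angiogenic factor of the same list, measured 144 CPM in the EPCaT and 153 CPM in 2D. Against the PF gel the list's median log2 ratio was 0.42 with 2 members higher, and against PF+3%PEGDA it was -0.10 with 0 called.

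The 250 bases before the RefSeq gene start (GRCh38.p14) are shown for the 3 most extreme members whose window holds a HIF core, ACGTG or GCGTG on either strand, to let the reader see where it lies. The core is in capitals and each sequence is written 5′ to 3′ on the gene's strand. The windows are chr19:8363905-8364154 (plus strand) for ANGPTL4, chr9:35673678-35673927 (plus) for CA9 and chr11:10304823-10305072 (plus) for ADM.
ANGPTL4: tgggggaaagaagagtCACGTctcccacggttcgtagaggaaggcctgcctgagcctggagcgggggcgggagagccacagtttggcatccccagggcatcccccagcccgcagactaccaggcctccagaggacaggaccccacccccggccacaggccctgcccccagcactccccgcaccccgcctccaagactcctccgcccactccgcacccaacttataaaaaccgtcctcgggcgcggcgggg
CA9: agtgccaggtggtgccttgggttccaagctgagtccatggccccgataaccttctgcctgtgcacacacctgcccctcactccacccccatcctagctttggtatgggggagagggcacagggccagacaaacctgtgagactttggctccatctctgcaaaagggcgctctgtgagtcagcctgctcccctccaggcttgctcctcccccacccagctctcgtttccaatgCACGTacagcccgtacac
ADM: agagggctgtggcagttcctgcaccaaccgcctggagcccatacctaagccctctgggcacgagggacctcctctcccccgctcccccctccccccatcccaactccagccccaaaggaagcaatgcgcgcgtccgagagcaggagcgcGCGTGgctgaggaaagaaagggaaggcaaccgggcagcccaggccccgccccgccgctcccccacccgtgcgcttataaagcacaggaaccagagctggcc
The core starts 234 bases before the gene start in ANGPTL4, 18 in CA9 and 101 in ADM. A core was found in 19 of the 23 members with a window, 82.6%, against 56.6% of 11177 windows of measured genes and 43.1% of all 27305 windows. For ACGTG alone the shares were 60.9%, 23.0% and 18.7%. Among members with a window, 14 of 16 higher genes and 5 of 7 others held a core. Of glycolysis genes 57.1% held a core of either form and 38.1% held ACGTG, against the same 56.6% and 23.0% of measured genes. A match is a description of these letters and not a binding site.

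Most genes of the glycolytic route were higher. Of 23 genes for glucose transport and glycolysis, 17 (73.9%) were higher and 0 lower. Their median log2 ratio was 1.56, and they summed to a level of 23049 CPM against 8774. The regulatory kinase gene PFKFB4 (257 and 20.8 CPM, 12.4-fold) and the aldolase gene ALDOC (176 and 14.4 CPM, 12.2-fold) were the most extreme. PGK1, which makes ATP, measured 2605 and 376 CPM (6.92-fold), and the enolase gene ENO2 228 and 36.04 CPM (6.33-fold). PFKFB3 and PFKL, which set the flux at phosphofructokinase, were 5.07- and 4.35-fold higher. LDHA, which makes lactate, was 3.33-fold higher at 2316 and 695 CPM. The 6 members within 2-fold were GAPDH, PKM, the second lactate dehydrogenase gene LDHB (159 and 151 CPM), the muscle isoform gene PFKM, the lactate carrier gene SLC16A1 (173 and 168 CPM) and the glucose carrier gene SLC2A3. The last 4 were singled out after their values were seen.

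Pyruvate entry into mitochondria and glycogen genes were split by role. The pyruvate dehydrogenase kinases, which shut that entry, were higher for PDK3 (64.4 and 7.77 CPM, 8.30-fold), PDK1 (75.7 and 13.5 CPM, 5.61-fold) and PDK4 (14.04 and 4.50 CPM, 3.12-fold), but not for PDK2 (62.04 and 49.8 CPM). Genes of the enzyme itself, PDHA1 and PDHB, and of the pyruvate carrier, MPC1 and MPC2, were within 2-fold. Glycogen synthase GYS1 (2.60-fold), the liver-type phosphorylase PYGL (2.48-fold), PGM1 (2.29-fold) and the branching enzyme GBE1 (2.02-fold) were higher, while PYGB and UGP2 were within 2-fold. In all, 8 of the 15 genes on this list were higher and 0 lower. None of 25 measured oxidative phosphorylation genes was called, and their median log2 ratio was 0.004. ATP5F1B, a subunit of ATP synthase, measured 512 and 522 CPM, and COX4I1, of cytochrome oxidase, 336 and 358.5 CPM.

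**Figure D2:**
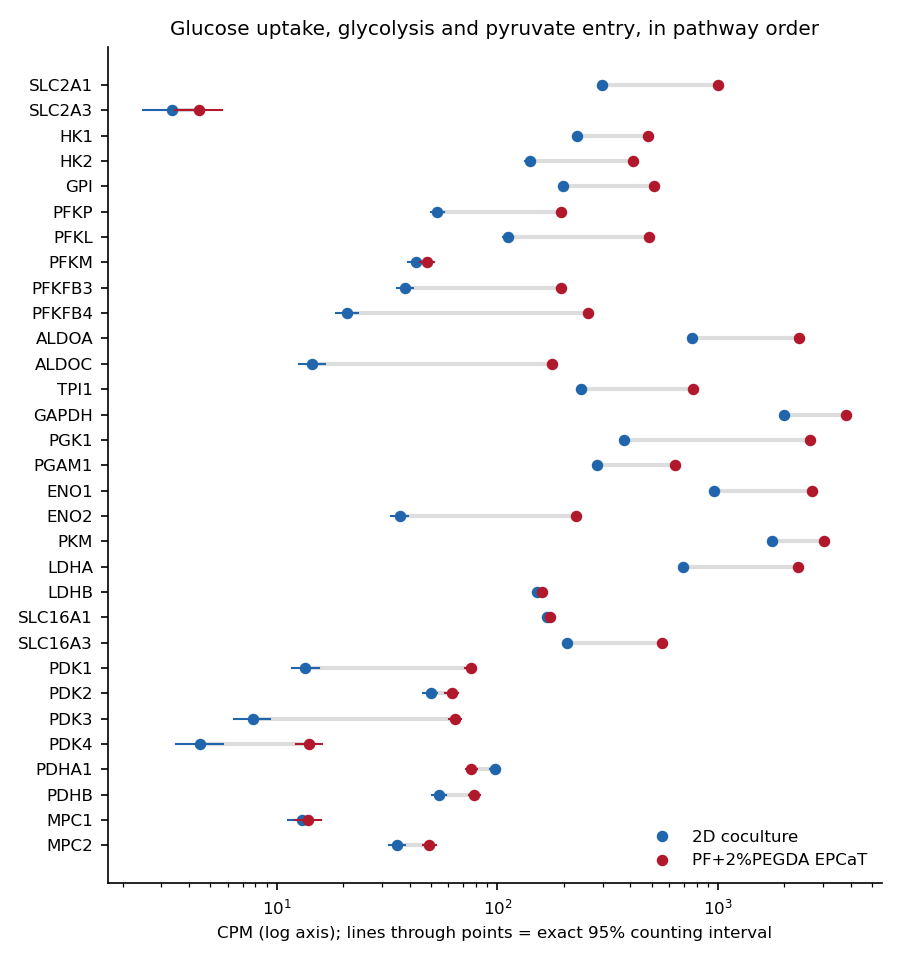
Genes of glucose uptake, glycolysis and pyruvate entry are listed from uptake to mitochondrial entry, with the CPM of each library on a log axis and exact 95% counting intervals as lines through the points. The EPCaT points lie to the right for most steps from SLC2A1 to LDHA, and the 2 libraries nearly coincide for LDHB, SLC16A1 and MPC1.

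Lipid genes were less uniform. Of 26 measured genes of PPAR response and lipid droplets, 9 were higher and 3 lower (median log2 ratio 0.66). Of the 26, 3 entered through the EPCaT library alone, HSD17B13 among them, and 1, CREB3L3, through 2D alone. HSD17B13, ANGPTL4 and FABP4 led the higher members, and FABP4 measured 92.8 and 1.43 CPM. The lower ones were G0S2, an inhibitor of lipolysis (2.57-fold), PNPLA2, the lipase it inhibits (117 and 241 CPM), and CREB3L3, with 1 count against 15. The receptor gene PPARG measured 422 and 301 CPM and was not called. Of 26 cholesterol genes 6 were higher and 0 lower (median 0.71). HMGCS1, an early enzyme (116 and 47.7 CPM, 2.43-fold), INSIG1, a sterol sensor partner (170 and 72.2 CPM, 2.36-fold), and TM7SF2, ACAT2 and SC5D were among them, the last at 2.02-fold, just inside the rule.

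Chaperones of the ER were lower almost throughout. Of 22 genes, 17 (77.3%) were lower and 0 higher. Their median log2 ratio was -1.66, and they summed to a level of 7155 CPM against 22047. MANF, a secreted ER stress protein, measured 63.8 and 357 CPM, 5.60-fold lower. CALR, the calcium-binding lectin chaperone calreticulin, measured 1003 and 5017 CPM, 5.00-fold lower with an interval of 4.92 to 5.09. HSPA5, the main ER chaperone BiP, measured 970 and 4088 CPM, 4.21-fold lower. HYOU1, HSP90B1 and PDIA4, 2 further chaperones and a disulfide isomerase, were 4.04-, 3.83- and 3.67-fold lower. The 5 members within 2-fold, singled out after their values were seen, were DNAJC3, P4HB, ERP29, ERP44 and TXNDC5. P4HB, which also serves collagen hydroxylation, measured 1348 and 1859 CPM. Against the PF and PF+3%PEGDA gels the list's median log2 ratios were 0.20 and 0.01, with 0 members called against PF and 1 higher against PF+3%PEGDA.

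Windows before 3 of these genes are shown because they hold the ER stress response element, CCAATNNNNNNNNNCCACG on either strand, here in capitals. They are chr19:12938359-12938608 (plus strand) for CALR, chr9:125241344-125241593 (minus) for HSPA5 and chr12:103930160-103930409 (plus) for HSP90B1, from RefSeq on GRCh38.p14 and written as above.
CALR: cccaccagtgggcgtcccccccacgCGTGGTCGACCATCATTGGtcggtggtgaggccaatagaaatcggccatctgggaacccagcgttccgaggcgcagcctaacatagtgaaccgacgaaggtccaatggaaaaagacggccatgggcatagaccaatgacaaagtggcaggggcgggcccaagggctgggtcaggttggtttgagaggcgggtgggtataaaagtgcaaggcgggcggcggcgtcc
HSPA5: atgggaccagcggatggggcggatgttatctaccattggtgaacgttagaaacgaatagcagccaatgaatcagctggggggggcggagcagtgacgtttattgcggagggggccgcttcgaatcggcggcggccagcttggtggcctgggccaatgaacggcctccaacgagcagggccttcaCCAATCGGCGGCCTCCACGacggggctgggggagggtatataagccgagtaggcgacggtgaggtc
HSP90B1: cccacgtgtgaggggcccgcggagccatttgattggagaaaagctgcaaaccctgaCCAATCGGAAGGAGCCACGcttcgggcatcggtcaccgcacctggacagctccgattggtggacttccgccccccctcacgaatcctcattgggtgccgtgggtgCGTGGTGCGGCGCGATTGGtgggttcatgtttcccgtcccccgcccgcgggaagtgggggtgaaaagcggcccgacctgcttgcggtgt
The element starts 225 bases before the gene start in CALR and 66 in HSPA5, and occurs 2 times in HSP90B1, at 194 and 89. It was found in 5 of 21 members with a window, all of them lower (CANX and CRELD2 besides the 3 shown), which is 23.8% against 0.125% of measured genes and 0.081% of all windows. The shorter CCAAT, which is part of the element, was in 85.7% of the members' windows against 35.0% and 33.0%.

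Genes around the chaperones were less uniform. Among 20 genes of protein export and ER-associated degradation, 3 (15.0%) were lower and 2 (10.0%) higher (median -0.41). These shares were not far from the 9.73% and 12.4% of all genes. HERPUD1, SYVN1 and SEL1L, parts of 1 degradation complex, were 2.87-, 2.48- and 2.14-fold lower, and the transcription factor gene CREB3L1 was 2.96-fold higher at 277 and 93.7 CPM. Of 19 genes of ATF4 and the integrated stress response, 9 were lower and 0 higher (median -0.91). CHAC1, which degrades glutathione, measured 21.5 and 204 CPM, 9.48-fold lower. TRIB3, a pseudokinase, measured 359.5 and 1839 CPM, and the transcription factor gene CEBPB 165 and 573 CPM. JDP2, PPP1R15A and SESN2 were 6.39-, 3.58- and 3.04-fold lower. ATF4 itself measured 217 and 405 CPM, 1.86-fold apart, and was not called. Of 15 cytosolic heat shock genes 1 was lower, BAG3 (3.76-fold), and 1 higher, CRYAB (2.84-fold). That is 6.67% each way, under the shares of all genes.

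Most genes of amino acid supply were lower. Of 21 genes of amino acid synthesis and uptake, 16 (76.2%) were lower and 0 higher (median -1.32), and their sum was 3313 CPM against 9529. SLC3A2 and SLC7A5, the heavy and light chains of a large neutral amino acid exchanger, measured 281 and 322 CPM in the EPCaT and 2159 and 1496 CPM in 2D, 7.67- and 4.65-fold lower. SLC7A1, the carrier of arginine and lysine, was 4.62-fold lower. The asparagine synthetase gene ASNS measured 40.4 and 184 CPM (4.56-fold lower), the mitochondrial folate gene ALDH1L2 1.61 and 13.9 CPM (8.63-fold), and CBS 8.955 and 47.96 CPM (5.36-fold). ASNS and CBS share 42.2% and 54.4% of their 50-base words with other genes, so their counts are uncertain. Of 20 cytosolic tRNA synthetase genes 10 were lower and 0 higher (median -1.03). AARS1, GARS1, IARS1, MARS1, TARS1 and NARS1, which charge alanine, glycine, isoleucine, methionine, threonine and asparagine tRNAs, were 2.47- to 2.84-fold lower. Cytosolic ribosomal protein genes were not: 0 of 28 were called (median -0.24), and RPS24 measured 2611 and 2711 CPM. The same 28 were 0.91 higher in median log2 than in the PF gel, where 11 were called higher (3.06% of all genes were), and 0.02 higher than in PF+3%PEGDA, where 0 were called.

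**Figure D3:**
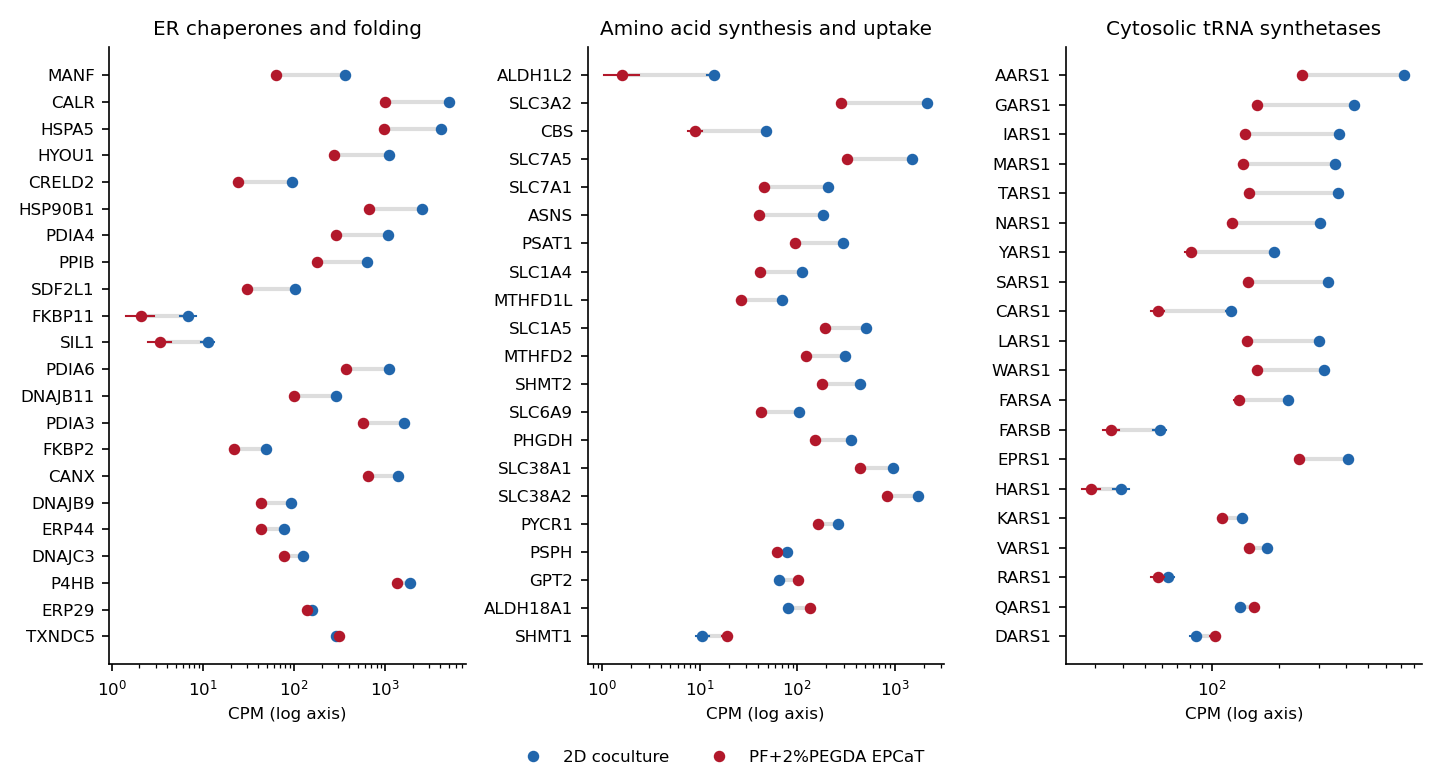
CPM in the 2D coculture and in the PF+2%PEGDA EPCaT on log axes, for ER chaperones, amino acid genes and cytosolic tRNA synthetases, each panel ordered from the most lower gene down, with exact 95% counting intervals as lines. The EPCaT point lies left of the 2D point for nearly all genes, from MANF, ALDH1L2 and AARS1 down to genes that nearly coincide or cross, such as TXNDC5 and QARS1.

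Most replication and mitosis genes were higher in the gel. Of 31 genes of DNA replication and nucleotide synthesis, 18 were higher and 0 lower (median 1.13). RRM2 and TYMS, which make DNA precursors, measured 114.8 and 116.5 CPM against 7.43 and 13.4 CPM, 15.5- and 8.73-fold higher. GINS1 and TK1 were 5.66- and 5.02-fold higher, and CLSPN and ORC1 6.37- and 6.4-fold. Of 36 mitosis genes 27 (75.0%) were higher and 0 lower, with a median of 1.29 and a summed level of 1053 CPM against 446. MKI67, the gene of the Ki-67 antigen, measured 49.03 and 7.56 CPM, 6.48-fold higher. DLGAP5 and NUSAP1 (spindle), NCAPG (condensin), ANLN (cytokinesis) and AURKB (chromosome passenger kinase) were 4.50- to 6.33-fold higher.

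In the mitosis list, as in several others, the 2% gel stood between its neighbours. Summed over the 36 mitosis genes, PF measured 1518 CPM, PF+2%PEGDA 1053 and PF+3%PEGDA 624. Sums for glucose transport and glycolysis were 16967, 23049 and 25093 CPM in the same order. In direct ratios the 2% gel had 4 of the 36 lower than PF (median log2 -0.40; 4.23% of all genes were lower) and 9 higher than PF+3%PEGDA (median 0.83; 2.38% of all genes were higher). The motif called CHR, TTTGAA or TTCGAA on either strand, known from cell cycle promoters, was in 17 of the 31 windows of mitosis genes, 54.8%, against 9.58% of measured genes and 14.6% of all windows. It was in 13 of the 25 higher genes with a window and in 4 of the 6 not called.

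Cyclins and their inhibitors followed in part. Of 24 genes 9 were higher and 1 lower. CDK1, the mitotic kinase, measured 83.4 and 6.403 CPM (13.0-fold). CCNA2, CCNE2 and E2F2 were 8.30-, 12.6- and 17.7-fold higher, the last from 4 counts in 2D. CCNE2 and E2F2 entered through the EPCaT library alone. CDKN2C, a CDK4 inhibitor, was 3.43-fold higher, and CDKN2B, another, was the lower one at 152 and 363 CPM. Replication-dependent histone genes, whose mature messages mostly lack poly-A tails, had 0 of 9 called.

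Many fibroblast markers were lower. In bulk RNA, fewer fibroblasts and less RNA per fibroblast cannot be told apart. Of 22 measured fibroblast markers 13 (59.1%) were lower and 1 higher (median -1.83), and their sum was 1136 CPM in the EPCaT and 3504 CPM in 2D. PDGFRB, the growth factor receptor of stromal cells, measured 16.4 and 148 CPM, COL1A2 105 and 871 CPM (8.29-fold) and COL3A1 102 and 468 CPM (4.57-fold). CTNNA1, which PC-3 lacks, measured 6.18 and 33.1 CPM, 5.35-fold lower with an interval of 4.29 to 6.73. Other markers did not follow: PDGFRA measured 20.4 and 17.4 CPM, TWIST1 20.4 and 18.05 CPM, and FBN1 60.8 and 68.6 CPM. POSTN, at 0 counts in the EPCaT and 15 in 2D, was 1 of 2 markers that entered through 2D alone. S100A4, which many cell types express, was the higher one (98.5 and 39.7 CPM). PDGFRA, TWIST1 and FBN1 were singled out after their values were seen.

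Epithelial markers were higher or within 2-fold with 1 exception. Of 27 measured, 10 were higher and 1 lower (median 0.56), with a sum of 10142 CPM against 6587. OVOL1 and EHF, epithelial transcription factor genes, were 3.44- and 3.01-fold higher, and CDH1, the gene of E-cadherin, 2.29-fold at 392 and 172 CPM. KRT18 did not differ by the rule (635 and 646 CPM). LCN2, lipocalin 2, was 4.31-fold lower. The part of the cell mixture in the matrix, contractile and mesenchymal results below was not tested.

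Most collagen genes were lower, with exceptions of type. Of 9 measured fibrillar collagen genes 6 were lower and 1 higher (median -2.25). COL1A1 and COL1A2, the chains of type I collagen, measured 365 and 105 CPM against 1742 and 871 CPM, 4.77- and 8.29-fold lower. COL3A1, COL5A1, COL5A3 and COL11A1 were 4.57-, 6.09-, 5.92- and 12.6-fold lower. COL5A2 (200 and 230 CPM) and COL27A1 (3.80 and 3.47 CPM) were within 2-fold. COL2A1 was the higher one, and at 516 CPM it was the most abundant fibrillar collagen count in the EPCaT, on a scale not corrected for gene length. Of 20 other collagen genes 12 were lower and 3 higher. COL4A1, of vascular and general basement membranes, was 5.70-fold lower, while COL4A5 and COL4A6, the chains typical of epithelial basement membranes, were 2.67- and 3.10-fold higher. COL17A1, of epithelial anchoring junctions, was 2.31-fold higher. Against PF+3%PEGDA, 3 of the 9 fibrillar genes were higher in the 2% gel (COL1A2 2.12-fold, COL5A3 4.07-fold and COL27A1 2.25-fold, chosen after their values were seen), and against PF 2 were lower.

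Other matrix lists differed in how many members were lower. Of 28 matrix glycoprotein and proteoglycan genes 19 (67.9%) were lower and 1 higher (median -1.81). FN1, the gene of fibronectin, measured 413 and 2390 CPM, 5.78-fold lower. IGFBP7 measured 19.8 and 179 CPM. MGP and SDC1, the gene of syndecan 1, were 13.3- and 7.79-fold lower, and TGFBI was the higher one (2.08-fold). Among 15 laminin and basement membrane genes 5 were lower and 1 higher, HSPG2, the gene of perlecan (795 and 226 CPM, 3.52-fold). LAMA1, NID2, LAMA4, LAMA5 and LAMB1 were the lower ones, 2.19- to 9.31-fold. Of 18 genes of collagen processing 4 were lower, among them the transglutaminase gene TGM2 (3.31-fold) and SERPINH1, the collagen chaperone (2.30-fold), and P4HA1, a collagen prolyl hydroxylase that HIF also induces, was 3.70-fold higher. Matrix proteases and inhibitors had 9 of 26 lower and 3 higher. The stromelysin gene MMP10 measured 19.5 and 1.43 CPM (13.6-fold higher), while the collagenase gene MMP1 measured 64.1 and 47.9 CPM.

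Lists tied to cell spreading and tension were split mostly between lower genes and genes within 2-fold. Of 19 contractile and SRF target genes, 2 of them let in by 2D alone, 10 were lower and 1 higher (median -1.01). Besides CNN1 and TAGLN they included TPM2 (tropomyosin, 7.17-fold), FHL2 (3.69-fold) and ACTA2 (smooth muscle actin, 2.84 and 11.7 CPM, 4.13-fold), and the non-muscle myosin gene MYH10 was the higher one. Of 23 YAP and TAZ target genes 9 were lower and 0 higher (median -0.63). CCN1 measured 81.9 and 349 CPM (4.26-fold lower), but its close relative CCN2 measured 108 and 179 CPM and was not called. DLC1 and FJX1 were 12.4- and 8.31-fold lower. Among 28 integrin and focal adhesion genes 6 were lower and 5 higher, or 21.4% and 17.9%. Of all genes 9.73% were lower and 12.4% higher. ITGA3, a laminin receptor subunit, measured 720 and 3144 CPM, and ITGA11, a collagen receptor of fibroblasts, 5.35 and 40.6 CPM, while ITGB6 and ITGB8, epithelial subunits, and ITGA10 were 3.96-, 2.39- and 5.06-fold higher.

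Mesenchymal transition regulators had 8 of 13 lower and 0 higher (median -1.44). SNAI2 measured 6.12 and 56.1 CPM (9.17-fold lower), GREM1 3.09 and 36.7 CPM (11.9-fold), and ZEB2, PRRX1, TWIST2 and MSX1 were 3.09- to 6.13-fold lower. FOXC1 and FOXC2 were 2.05- and 2.72-fold lower. SNAI1, TWIST1, ZEB1, TCF4 and MSX2 were within 2-fold. VIM, which both lines can express, measured 1135 and 1851 CPM and was not called. Among 31 junction genes 5 were higher and 4 lower, or 16.1% and 12.9%, near the shares of all genes. The lower ones included the mesenchymal cadherin genes CDH2 (19.5 and 129 CPM) and CDH11 (115 and 515 CPM).

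Several secretory epithelial genes were higher. Among 17 measured genes of the sodium channel, mucins and membrane serine proteases 10 (58.8%) were higher and 1 lower (median 1.24). All 3 epithelial sodium channel subunits were among them, SCNN1A at 15.8 and 2.79 CPM, SCNN1B at 28.8 and 1.77 CPM and SCNN1G at 71.7 and 2.25 CPM (5.65-, 16.3- and 31.9-fold). The mucin gene MUC5B measured 557 and 36.3 CPM (15.3-fold). MSLN, which encodes mesothelin, the binding partner of the MUC16 protein, was the lower one (0.773 and 7.02 CPM). It entered through 2D alone, and 3 of the 17 genes, MUC16 among them, entered through the EPCaT library alone. Of 12 measured prostate luminal genes 6 were higher and 1 lower (median 1.18). Of the 12, 1 entered through the EPCaT library alone (ACP3) and 1 through 2D alone. PSCA, prostate stem cell antigen, measured 69.1 and 3.47 CPM (19.9-fold), TMPRSS2 310 and 42.4 CPM (7.30-fold), SLC45A3, the prostein gene, 243 and 39.7 CPM (6.13-fold), and ACP3, prostatic acid phosphatase, 7.02 and 0.341 CPM (20.6-fold). HOXB13, a prostate identity factor, measured 763 and 294 CPM (2.59-fold). KLK2, KLK3 and FOLH1 were under 1 CPM in both libraries.

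Some interferon-stimulated genes were lower than in 2D and none higher. Of 28 genes 14 were lower than 2D and 0 higher (median -0.92). ISG15, a ubiquitin-like modifier, measured 957 and 3309 CPM (3.46-fold lower), IRF7, a factor that drives interferon genes, 86.7 and 419 CPM (4.83-fold), and IFITM3, which blocks viral entry, 443 and 1467 CPM (3.32-fold). IFIT1, IFIT2 and IFIT3 were 3.15-, 3.72- and 3.00-fold lower. The sum over the list was 6782 CPM in the 2% gel, 9430 CPM in PF, 9152 CPM in PF+3%PEGDA and 14229 CPM in 2D, so the 2% gel had the lowest of the 4 values. In direct ratios its median log2 was -0.55 against PF, with 5 of 28 lower (4.23% of all genes), and -0.44 against PF+3%PEGDA, with 0 called. MHC class I genes did not go with them, as 0 of 15 were lower (9.73% of all genes were). The 2 higher ones, NLRC5 and PSMB9 (2.11- and 2.04-fold), made up 13.3%, near the 12.4% of all genes. B2M measured 1874 and 1455 CPM.

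**Figure D4:**
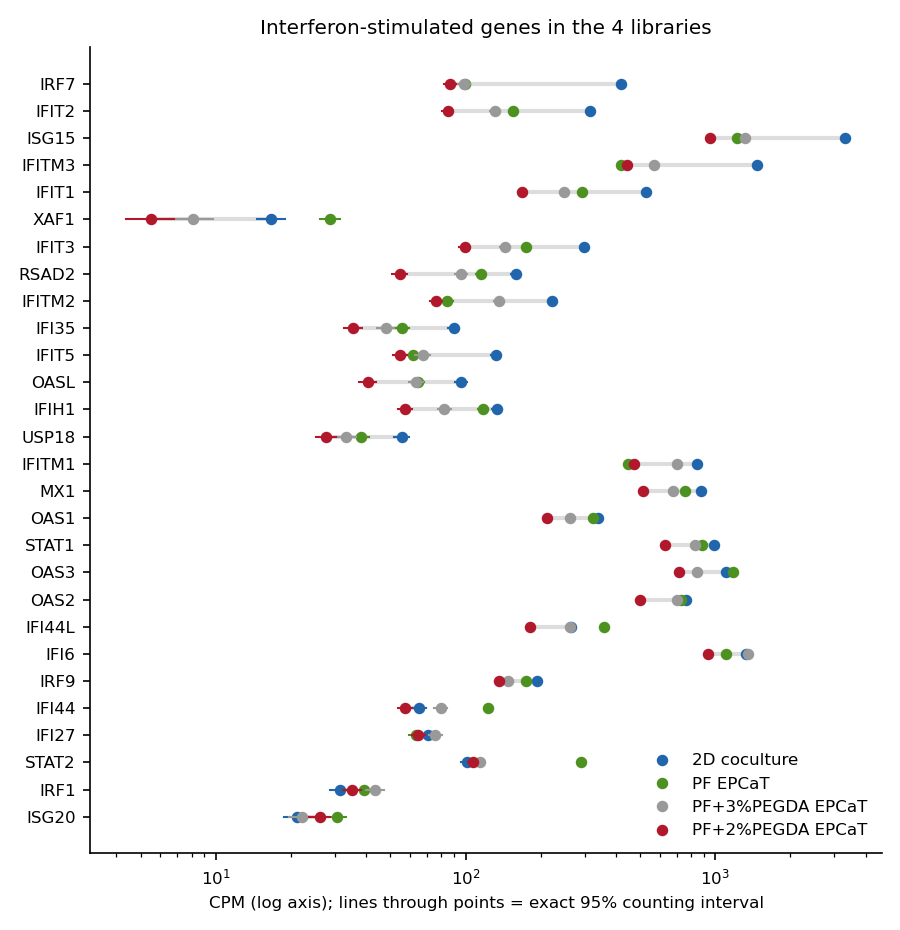
CPM of the 28 interferon-stimulated genes in the 4 libraries on a log axis, with exact 95% counting intervals as lines, ordered from the most lower gene in PF+2%PEGDA against 2D. The 2D points lie highest for genes such as IRF7 and ISG15, and the PF+2%PEGDA points lie at or near the low end for most genes.

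Secreted signals were mostly lower where they differed. Among 13 measured chemokine genes 6 were lower and 2 higher. Of the 13, 1 entered through the EPCaT library alone and 2 through 2D alone. CCL2, CXCL1 and CXCL12 measured 1.61, 3.99 and 0.580 CPM against 11.99, 25.1 and 4.56 CPM, while CCL28, an epithelial chemokine, measured 32.5 and 5.65 CPM. CXCL8 measured 50.5 and 65.6 CPM and was not called. Of 12 interleukin and colony-stimulating factor genes 4 were lower, IL24, IL6 (1.22 and 8.17 CPM, 6.68-fold), IL18 and CSF2. IL33 was higher (14.75 and 2.11 CPM, 6.99-fold). IL24 (0.129 CPM in the EPCaT) and CSF2 (0.387 and 1.23 CPM) entered through 2D alone, which set their direction. Of all genes 9.73% were lower. NF-kB subunits and feedback genes had 1 of 16 higher, NFKBIA, and 0 lower. In the EGF family 6 of 13 were lower and 2 higher. The receptor genes EGFR (161 and 325 CPM, 2.02-fold lower) and ERBB3 (97.7 and 41.4 CPM, 2.36-fold higher) lay on opposite sides, and the ligand genes EPGN, NRG2 and AREG were 7.89-, 5.55- and 2.79-fold lower. ERK feedback genes had 4 of 23 lower and 0 higher. MYC, the growth factor-induced transcription factor, measured 90.6 and 323 CPM, 3.56-fold lower.

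Other signalling lists held members on both sides. TGF-beta and BMP genes had 6 of 27 lower and 3 higher, with TGFB2 and INHBB 3.82- and 3.63-fold lower and TGFB3, BMP2 and BMP6 3.07-, 4.96- and 3.29-fold higher. Notch and Wnt genes had 7 of 26 lower and 2 higher, with the ligand genes JAG1 (67.8 and 335 CPM) and DLL4 (6.70 and 40.4 CPM) lower and RNF43, a Wnt receptor-removing ligase, 5.04-fold higher. In the IGF axis 5 of 15 were lower and 2 higher. IGFBP4 measured 267 and 1608 CPM and IGFBP5 596 and 128 CPM, so these binding proteins went opposite ways. NRF2 target genes had 5 of 25 higher and 0 lower, led by GPX2, a glutathione peroxidase (36.7 and 2.25 CPM, 16.3-fold), while HMOX1 and NQO1, singled out after their values were seen, measured 68.3 and 151 CPM against 61.9 and 126 CPM. Of 6 measured metallothionein and zinc genes 4 were lower, MT2A at 124 and 567 CPM (4.56-fold), though MT2A and MT1X were 2.56- and 3.18-fold higher than in the PF gel. The p53-type targets had 4 of 20 lower and 3 higher. Of all genes 12.4% were higher and 9.73% lower. The higher shares of the TGF-beta and BMP, IGF and p53-type lists (11.1%, 13.3% and 15%) were near the first of these. Their lower shares, 22.2%, 33.3% and 20.0%, and that of the Notch and Wnt list, 26.9%, were above the second.

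Genes known from endothelium were not uniform. Of 8 measured endothelial and blood cell markers, PECAM1 (82.3 and 7.15 CPM, 11.5-fold), KDR, the VEGF receptor 2 gene (185 and 22.0 CPM, 8.39-fold), ESAM (37.2 and 8.99 CPM) and LYZ (1.55 and 0.272 CPM) were higher. FLT1, the VEGF receptor 1 gene (5.86 and 43.5 CPM), and CD68 (55.2 and 118 CPM) were lower. Of the 8, 1 (LYZ) entered through the EPCaT library alone and 1 through 2D alone. TIE1 and CD14 were within 2-fold or its counting error, and TEK, VWF and CLDN5 were under 1 CPM in both libraries.

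**Figure D5:**
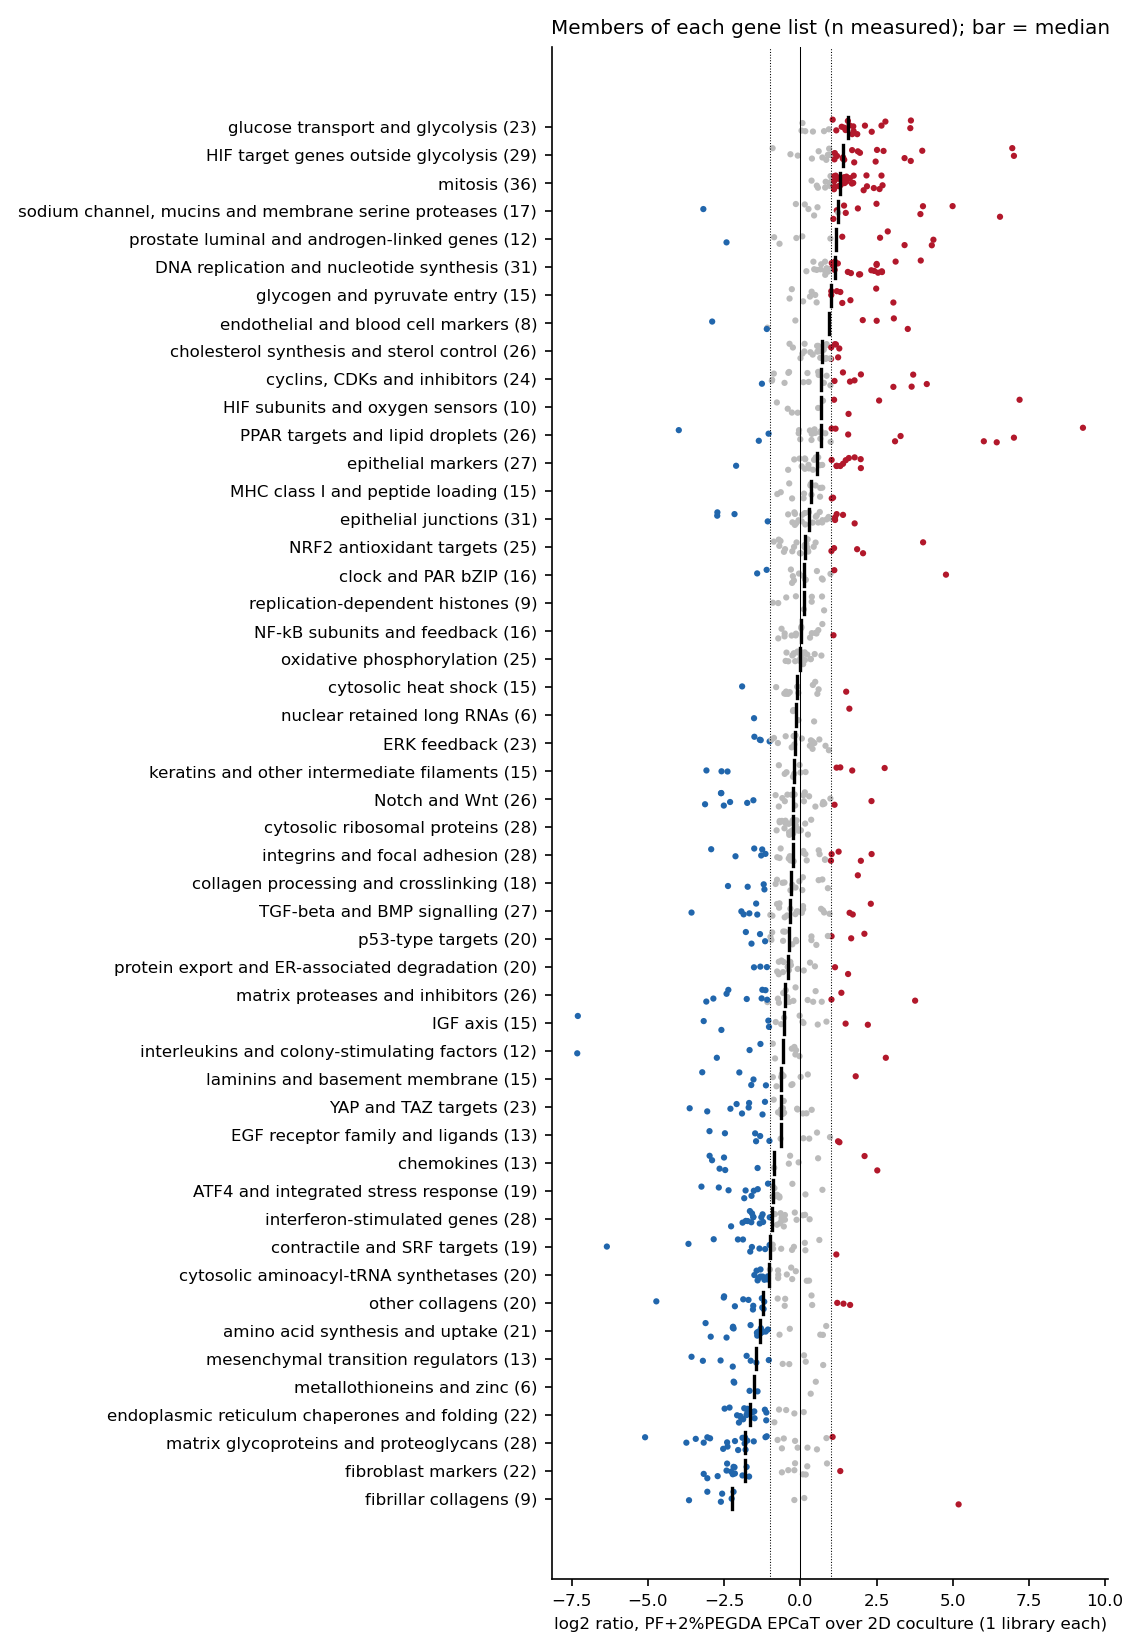
Each point is the log2 ratio of 1 gene, PF+2%PEGDA EPCaT over 2D coculture, 1 library each, for the measured members of 50 gene lists ordered by their median (black bar). Red points were called higher, blue lower and grey neither, and dotted lines mark 2-fold. Glycolysis, HIF target and mitosis lists have medians above 1, and fibrillar collagens, fibroblast markers and ER chaperones have medians under -1.5.

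Few genes set the 2% gel apart from 2D and from both other gels at once. Called higher than all 3 were 26 genes (0.18%) and lower than all 3 were 45 (0.312%). These counts depend on the filter and the fold: at 5 CPM or more they were 3 and 11, at 4-fold 5 and 13, and with no filter 47 genes were higher. Of the 23 and 37 with an annotation, 26.1% and 24.3% share at least 50% of their 50-base words with another gene, against 3.60% of all annotated genes measured, and 7 of each set are named as read-through loci. FGB, the fibrinogen beta chain gene, had 82 counts in the 2% gel, 0 in 2D, 44 in PF and 18 in PF+3%PEGDA. TMOD1, an actin filament capping gene, measured 5.22 CPM against 1.16, 1.26 and 2.57 CPM in the same order, with 45.01% of its exonic bases opposite another gene. GPR75-ASB3, a read-through locus, had 85 counts against 0, 6 and 7. On the lower side LOC727751, CBSL, PLA2G4B, MSTO2P and CZ1P-ASNS led. CBSL is a near copy of CBS (94.4% shared words) and measured 2.58 CPM in the 2% gel against 20.7 CPM in 2D, while CBS itself was 2.76-fold higher in the 2% gel than in PF, so counts of this pair could be split differently between libraries. The other gels were closer to the 2% gel than 2D was: 442 genes (3.06%) were higher and 610 (4.23%) lower than in PF, and 343 (2.38%) and 173 (1.2%) against PF+3%PEGDA.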

How the data were processed

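RNA was purified with QIAshredder and an RNeasy kit and made into libraries with a TruSeq RNA kit, per the labels' protocols. The authors deposited 1 table of values per gene, partly not whole and with totals that differ between libraries, and they were treated here like expected counts (estimated read counts), since the sources used here do not name the unit. Alignment was to hg38 and the tools were FastQC, STAR and Partek, per the submitters' processing notes. Versions, the annotation and the counting method are not given in the sources used here. Between 18.2% and 19.9% of values in a library lay more than 0.01 from a whole number, and all were rounded.

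Scaling was done with edgeR 4.0.16 under R 4.3.3 (TMM normalization) over genes with at least 1 CPM in any of the 4 libraries. A ratio of 2 libraries has an exact Clopper-Pearson 95% interval, for counting error only, without molecular identifiers. A library at 0 counts was set to 3 counts and the fold given as a lower bound. Intervals used scipy 1.17.1, tables pandas 2.3.3 and numpy 2.4.6, figures matplotlib 3.10.9, all under Python 3.11.15. Calls were tested on simulated data. No p-value was computed, since each group is 1 library.

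Members and 50 gene lists were chosen with earlier results of these data known. Named genes had to reach 5 CPM in the higher library and were the 15 highest and 15 lowest by the interval bound nearest to equality, the 8 largest gains and 8 largest losses in CPM, and up to 5 and 5 genes apart from the other gels. Up to 6 members of each list, all members of lists of 15 or fewer, and genes fixed by name were added. Coordinates, shares of 50-base words found in another gene and antisense overlap come from GENCODE 29 (GRCh38), which matched 13988 of 14421 measured symbols. Promoter windows come from RefSeq. Alternatives tried were scaling by total counts or with DESeq2 1.42.0, other filters, a 4-fold rule, a prior count of 0.5 and removal of length and GC trends. Values of some list members are not reported here.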

Additional observations from a re-analysis of the deposited data

How the results depend on the processing

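Of 73 named genes recomputed singly, none called higher or lower changed direction under any alternative. Nor did any list median of at least 1 in size. Genes named only as members of a list were not recomputed singly. Of 2254 recomputed values, 2046 stayed close to the reported one and 208 moved. Filters and the 4-fold rule leave a gene's own ratio unchanged, and another scaling shifts all genes alike. Few reversals were thus possible, and this agreement is no replicate check. Scaling by total counts shifted the median log2 ratio of all genes from -0.0041 to 0.108 and the share of calls that were higher from 55.95% to 63.03%. All 1782 higher calls were kept, and 1175 of 1403 lower calls. The median log2 ratio of the ER chaperones became -1.55 with total counts, -1.56 with total counts without ribosomal RNA, -1.58 with length and GC trends removed (which held 1.02% of the variance) and -1.74 without genes that share at least 50% of their 50-base words. The settings without ribosomal RNA and without such genes were chosen after seeing the data. The cause was not tested.

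With a 4-fold rule, which is stricter by construction, 620 genes were higher and 408 lower, with 8 HIF targets, 7 mitosis genes and 0 fibroblast markers higher and 4 ER chaperones lower. Genes apart from 2D and both other gels then numbered 5 higher and 13 lower. At least 5 CPM left 3 and 11 of them, and no filter gave 47 higher. The median of the fibrillar collagens was -2.41 at 5 CPM or more. List medians close to 0 changed sign only for oxidative phosphorylation (-0.01 with DESeq2 size factors) and cytosolic heat shock (0.01 with total counts).

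No paired analysis was possible because each group is 1 library. Leaving out a replicate was not possible for the same reason. Genes with few counts in 1 library, such as CA9 and CNN1, have wide intervals, and variation between cultures is not in any interval.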

Other observations

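Keratin genes went both ways. Of 15 measured keratin and other intermediate filament genes 4 (26.7%) were higher and 3 (20.0%) lower, against 12.4% and 9.73% of all genes. KRT15, a basal keratin, measured 179 and 26.4 CPM, and KRT8, the partner of KRT18, 979 and 429 CPM. LMNB1, the lamin of proliferating nuclei, was 3.25-fold higher, while LMNA measured 489 and 669 CPM. KRT81 and KRT86, hair keratins that share sequence, and KRT16, a stress keratin, were 6.001-, 5.24- and 8.46-fold lower.

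Clock genes were mostly within 2-fold, with 2 of 16 higher and 2 lower. These shares, 12.5% each, were near the 12.4% and 9.73% of all genes. HLF, a circadian output factor, had 58 counts in the EPCaT and 2 in 2D, and entered through the EPCaT library alone. The repressor genes NR1D1 and NR1D2 were 2.67- and 2.15-fold lower. On a list of 8 chosen long noncoding RNAs, 6 were measured. Of these 6, MALAT1 was higher (47.35 and 15.5 CPM) and GAS5 lower (6.44 and 18.5 CPM).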
